A study of Mus musculus with 2 samples.

Results

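The tumour necrosis factor (TNF) superfamily genes examined here comprised TNF and the ligands numbered Tnfsf, the receptors numbered Tnfrsf, the TRAF adaptors, the TNF-induced proteins named Tnfaip and the BIRC inhibitors of apoptosis. They were chosen by the gene name that the array files give to a probe, and came to 54 genes with 76 probes, out of 34797 gene names and 55681 probes on the array. Microglia, the tissue macrophages of brain and spinal cord, had been sorted from spinal cord, and their total RNA was hybridised to 1-colour Cy3 arrays. One sample came from mice of an atopic diathesis model (titled activated) and the other from control mice (titled normal). Atopic diathesis is a tendency to allergic disease, and both arrays lay on 1 slide, where position and group cannot be told apart. How the model was made, and the strain, age, sex and number of animals in each sample, are not given in the sources used here.

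TNF superfamily ligands are mostly trimers on the cell surface or shed from it, and they act by clustering their receptors. Receptors with a death domain can start apoptosis. Many receptors of the family, with or without that domain, engage TRAF adaptors, which with the BIRC ubiquitin ligases switch on NF-kappaB and stress kinases. Several Tnfaip and Birc genes are themselves targets of NF-kappaB and feed back on it. In the spinal cord, TNF released by microglia is best known for its part in inflammation and pain after nerve injury.

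With 1 array per group no test between the groups is possible, and all values describe these 2 samples. A signal is the processed fluorescence of a probe on the linear scale. A probe is called detected where the scanner software flagged it as well above background. A difference is the log2 ratio of atopic diathesis to control, set against the median of the 9207 genes detected by the same probe on both arrays (measured genes), and "higher" or "lower" without a size means at least 2-fold on that scale. Of 103 probes printed 10 times and measured on both arrays, repeated spots gave a 95% interval of ±0.41 for a log2 difference read from single spots. It was ±0.58 for the 37 probes with a mean signal under 100 and ±0.26 for the 66 brighter ones. These intervals cover spot error only and leave out animals, sorts and RNA amplification. The lowest detected signal was 18.2 on the atopic diathesis array and 19.8 on the control array.

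All 10 microglia markers were measured and lay within 2-fold, with a median difference of -0.09. None of 5 T cell, 4 neutrophil or 5 monocyte and border macrophage markers on the array was detected. Of 4 B cell markers, Cd79b alone was detected, in atopic diathesis only, and the summed B cell signal was 55.6 in atopic diathesis and 19.5 in control. Of 4 mast cell markers Mcpt4 was detected, likewise in atopic diathesis only, with summed signals of 91.7 and 32.7 in atopic diathesis and control. Some glial, neuronal and endothelial markers were detected. By the same probe on both arrays, these were 3 of 6 astrocyte markers, 3 of 6 oligodendrocyte markers and 1 of 5 neuron markers (Snap25). The oligodendrocyte gene Mobp was detected on both arrays but by different probes, and Gja1, Mag, Pecam1 and Flt1 were detected on 1 array each. Most of the measured markers among these lay within 2-fold, and Cnp was higher (1.70). Snap25 read 84020 in atopic diathesis and 82160 in control, while the other neuron markers were undetected on both arrays. The astrocyte gene Gja1 read 241.4 in atopic diathesis and 10.4 in control, at least 12.5-fold higher, and the oligodendrocyte gene Mag was at least 2.53-fold higher. The endothelial genes moved apart, with Pecam1 at least 6.57-fold higher and Flt1 at least 17.6-fold lower in atopic diathesis. The part of other cells in the values below was not tested, and fewer cells of a type and less RNA per cell cannot be told apart in such bulk samples.

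The values rest on 60-base probes, and the sequences that matter most for reading them are shown as 30-base stretches, 5′ to 3′, read from the array files, with each probe's full position in mm9. The Tnfsf10 and Traf5 probes were far lower and the Birc3 probes far higher in atopic diathesis, the Tnfrsf13b probes lay in 3 parts of 1 gene, and the Tnfrsf9 pair read very differently. Capitals mark bases that the reverse strand of another gene's probe (Slc17a5) also holds, in a run of at least 25. Whether the probes lie in coding exons or untranslated regions was not determined.
Tnfsf10, chr3:27238508-27238567, plus strand, bases 1 to 30: gggaaatgttaaactttgtaaactctgaaa
Traf5, chr1:193821311-193821370, minus strand, bases 1 to 30: aaagacgacacactgttcttgaaagtggcc
Birc3 probe measured on both arrays, chr9:7854409-7854468, minus strand, bases 1 to 30: agaactacaggaccgtcagtgacctcgtta
Birc3 second probe, chr9:7856162-7856221, minus strand, bases 1 to 30: acagataatgcccagctaatagaacagggt
Tnfrsf13b downstream probe, chr11:60962770-60962829, plus strand, bases 1 to 30: cctggagaatatagcctggctccatttgca
Tnfrsf13b upstream probe, chr11:60954823-60954882, plus strand, bases 1 to 30: tcagctgtgactccacctgcacacagcacc
Tnfrsf13b middle probe, chr11:60960405-60960464, plus strand, bases 1 to 30: atcttctgctgtttcttggtggccttggcc
Tnfrsf9 bright probe, chr4:150319582-150319641, plus strand, bases 31 to 60: taaaATCAGTGTGTGTGTGTGTGTGTGTGT
Tnfrsf9 dim probe, chr4:150319101-150319160, plus strand, bases 1 to 30: cgcgcacctcatccaagtctcttctaacgc

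Of the 54 genes, 20 were measured on both arrays (37.0%, against 26.5% of all gene names), 5 were detected in atopic diathesis microglia only, none in control microglia only, and 29 in neither. Among all gene names, 8.06% were detected in atopic diathesis only and 4.14% in control only. Of the 20 measured genes, 3 were higher (15%), namely Birc3, Tnfrsf1b and Birc2, against 17.3% of all measured genes. A further 7 were lower (35.0%), namely Tnfsf10, Traf5, Tnfrsf13b, Traf6, Tnfaip8l2, Tnfaip3 and Tnfrsf21, against 15.6% of all measured genes. The median of the 20 differences was -0.24. The share of higher genes was thus near that of the array. The share of lower genes was above it in this pair of arrays, but was 4 of 20 under quantile normalization, beside 16.3% of all genes. With normexp (a model-based background correction) it was 6 of 20, beside 10.5%, and with no background subtraction 6 of 20, beside 9.58%. With the 75th percentile of all probes as the scale and no centring, 1 of 20 was higher and 8 of 20 were lower. On that scale 988 of all 9207 measured genes were higher and 2501 (27.2%) were lower, and their median itself stood at -0.50. Of all genes past 2-fold, 28.3% were then higher, against 52.6% on the scale used here.

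**Figure D1:**
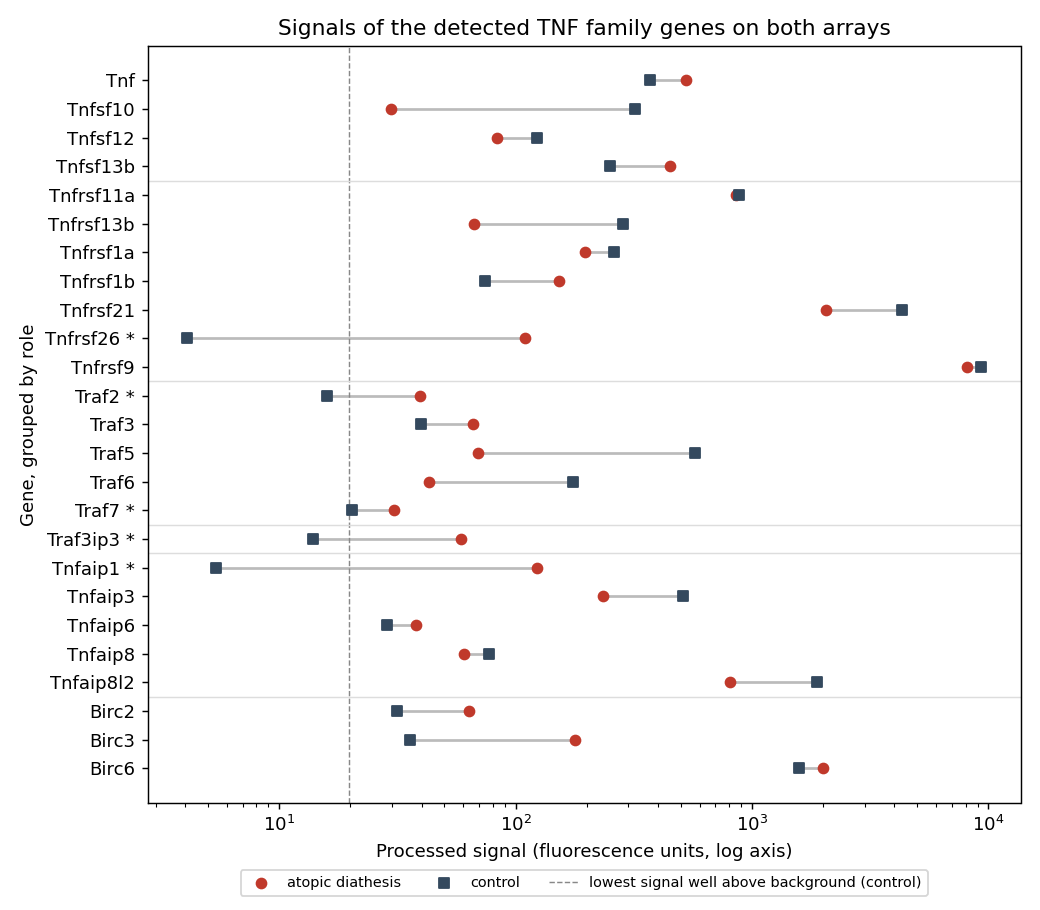
Processed signal (log axis) of each detected gene in atopic diathesis microglia (red circles) and control microglia (dark squares), 1 array each, ordered by role. Asterisks mark the 5 genes detected in atopic diathesis only, and the dashed line is the lowest detected control signal, 19.8.

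Among the ligands, 4 of 11 were measured, and 1 of these differed by at least 2-fold. Tnfsf10 (TRAIL, a ligand that can trigger apoptosis through death receptors) had a signal of 29.7 in atopic diathesis microglia and 320.6 in control microglia, a difference of -3.40 or 10.6-fold lower. Its atopic diathesis signal lay close to the lowest signal counted as above background, so the size of this fold depends on how background is treated. With no background subtraction the difference was -1.82.

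Tnf itself, the founding ligand of the family, was printed 10 times on each array. Its spots read 503.1 to 545.3 with a median of 530.5 in atopic diathesis microglia, and 346.8 to 381.3 with a median of 370.9 in control microglia. The sets of spots did not overlap, and the difference was 0.54 with a spot-error interval of 0.50 to 0.58, or 1.46-fold higher. That interval says how well 1 array was read and nothing about the spread between animals, and the value lay within 2-fold. Over the alternatives it ran between 0.04, with the 75th percentile of all probes, and 0.70.

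Tnfsf13b (BAFF, a survival factor of B cells that myeloid cells make) read 450.3 in atopic diathesis and 251.9 in control, a difference of 0.87. Tnfsf12 (TWEAK) read 83.5 in atopic diathesis and 122.8 in control as the mean of its probes, a difference of -0.52. Both of its probes lay on the same side, at -0.44 and -0.61. The other 7 ligands, Tnfsf4, Tnfsf8, Tnfsf9, Tnfsf11 (RANK ligand), Tnfsf14, Tnfsf15 and Tnfsf18, were undetected.

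**Figure D2:**
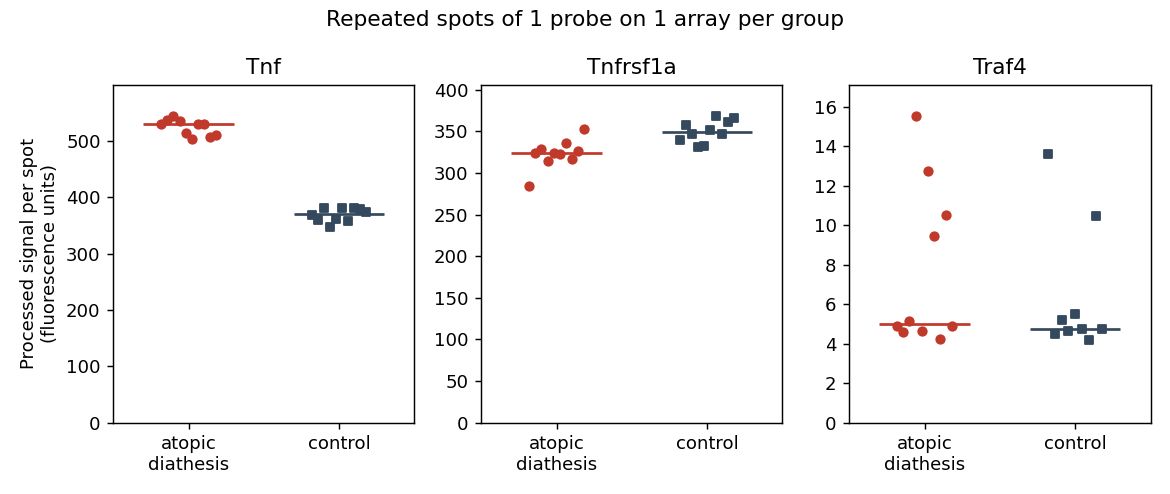
Processed signal of each usable spot of the probes printed 10 times, in atopic diathesis and control microglia, with the median as a line. The Tnf spots of the arrays do not overlap (503.1 to 545.3 against 346.8 to 381.3), the Tnfrsf1a spots do, and the Traf4 spots lie at background on both.

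The receptors of these ligands were detected unevenly. Tnfrsf1a, the death domain receptor of TNF found on most cells, was measured by a pair of probes that lay below the median gene, at -0.09 and -0.68. On the probe printed 10 times the spots read 284.9 to 352.3 with a median of 324.0 in atopic diathesis, and 331.5 to 369.0 with a median of 348.9 in control, so they overlapped. The difference of that probe, -0.09, had a spot-error interval of -0.14 to -0.03, which likewise says nothing about the spread between animals. Tnfrsf1b, the TNF receptor without a death domain, which prefers the membrane-bound ligand, read 152.1 in atopic diathesis and 74.0 in control. Its difference was 1.07, just past 2-fold, and 6 of 13 alternatives kept it past 2-fold. Several of these, such as keeping outlier spots (1.07), could hardly move a gene read from 1 probe.

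TACI, encoded by Tnfrsf13b, is a receptor of BAFF known mainly from B cells. Its downstream probe had a signal of 111.6 in atopic diathesis and 972.8 in control, a difference of -3.09. The upstream probe read 39.6 in atopic diathesis and 83.5 in control, a difference of -1.04. On the middle probe the signal was 13.1 in atopic diathesis, where it was undetected, and 29.8 in control, at least 1.60-fold lower. All 3 probes were therefore lower in signal in atopic diathesis, by unlike amounts, and the gene mean of the pair measured on both arrays was -2.07 (-1.41 with no background subtraction). The other BAFF receptor genes, Tnfrsf13c and Tnfrsf17, were undetected.

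Tnfrsf21 (death receptor DR6, studied mostly in neurons) read 2052 in atopic diathesis and 4322 in control, a difference of -1.04. Like that of Tnfrsf1b it lay near the 2-fold line, and 10 of 14 alternatives kept it past that line. Tnfrsf11a (RANK, the receptor of Tnfsf11) was at 855.1 in atopic diathesis and 876.5 in control, a difference of -0.003.

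Tnfrsf26, a mouse gene for a TNF receptor family member, was detected in atopic diathesis only, with 109.7 there and 4.09 in control, at least 5.67-fold higher. With no background subtraction the bound was 2.02. No other receptor was detected in that sample alone. The remaining receptors, namely Tnfrsf4, Tnfrsf8, Tnfrsf10b (the mouse death receptor of Tnfsf10), Tnfrsf11b, Tnfrsf12a (the receptor of Tnfsf12), Tnfrsf14, Tnfrsf18, Tnfrsf19, Tnfrsf22, Tnfrsf23 and Tnfrsf25 as well as the BAFF receptors named above, were not detected on either array.

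Tnfrsf9, a co-stimulatory receptor best known from T cells, stood apart at the level of its probes. The bright one read 8137 in atopic diathesis and 9281 in control, a difference of -0.16, whereas the other, 4.69 in atopic diathesis and 4.93 in control, was undetected on both arrays. The bright probe ends in a run of alternating T and G, which lies within the bases shown in capitals above. Of the 49 probes on the array with an unbroken run of 20 bases of TG, all were detected on both arrays, against 20.2% of all probes. Their median signal was 68680 in atopic diathesis and 64080 in control, against 7.92 and 5.36 in atopic diathesis and control over all probes. The Tnfrsf9 probe was the only one of the 76 with such a run, and its signal is therefore given without being read as the level of Tnfrsf9.

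**Figure D3:**
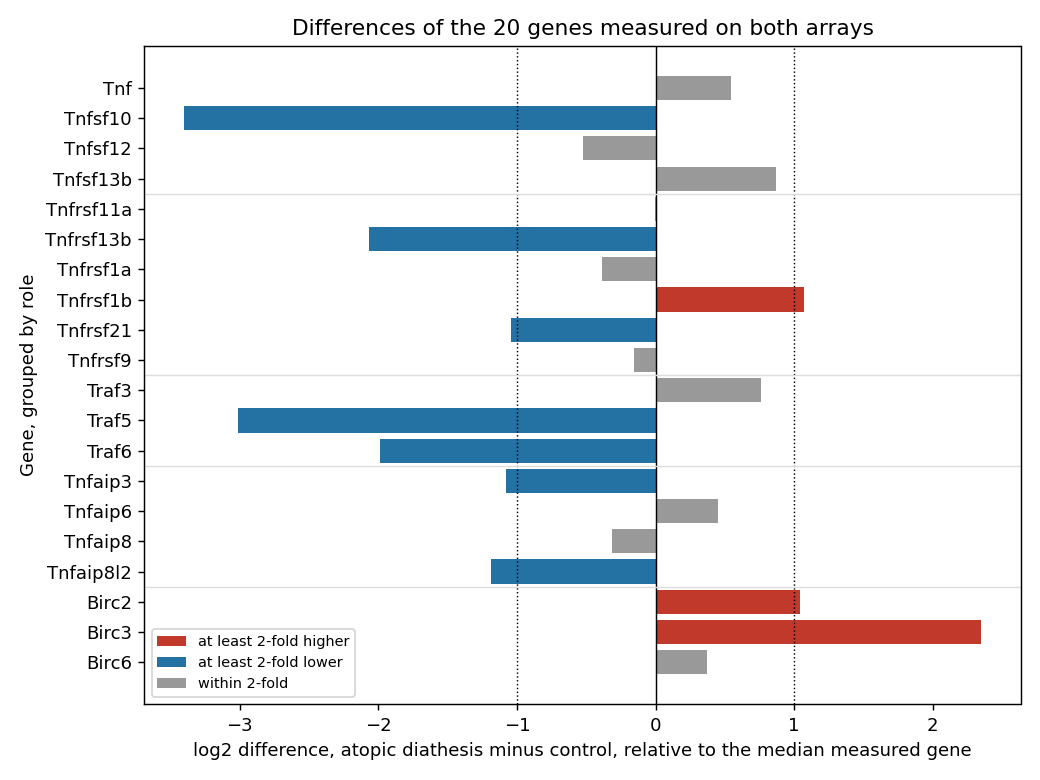
log2 difference (atopic diathesis minus control, relative to the median measured gene) of the 20 genes measured on both arrays, grouped by role, with dotted lines at 2-fold. The 7 blue bars pass 2-fold below the median gene, led by Tnfsf10 at -3.40 and Traf5 at -3.02, and the 3 red bars pass it above, led by Birc3 at 2.35.

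Of the 7 TRAF adaptors, which carry receptor signals to kinases and ubiquitin ligases, 3 were measured. Of these, 2 were lower and none higher, beside 15.6% and 17.3% of all measured genes. Traf5, which serves co-stimulatory receptors and the lymphotoxin beta receptor, had a signal of 69.5 in atopic diathesis and 575.0 in control, a difference of -3.02 or 8.09-fold lower, and -2.09 with no background subtraction. Traf6, the adaptor shared by Toll-like receptors, the interleukin-1 receptor, CD40 and RANK, read 43.2 in atopic diathesis and 175.0 in control, a difference of -1.99. That value came from 1 of its 3 probes, the other two being undetected on both arrays. It was -1.08 with no background subtraction and -1.25 with normexp (a model-based background correction), and also came close to 2-fold with no background filter. Traf3, which holds the non-canonical NF-kappaB kinase in check, read 65.8 in atopic diathesis and 39.7 in control, a difference of 0.76.

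Traf2, which brings the BIRC ubiquitin ligases to TNF receptors, was detected in atopic diathesis only, at 39.2 there and 16.0 in control, at least 2.03-fold higher. Its bound was 1.21 with normexp and 1.15 with no background subtraction. A second Traf2 probe read 4.81 in atopic diathesis and 4.69 in control, undetected on both arrays. Traf7 was also detected in atopic diathesis only, at 30.7 there and 20.3 in control, with a bound of 1.54. Its second probe read 16.85 in atopic diathesis and 14.63 in control, undetected on both arrays. Traf1 was not detected, and neither was Traf4, whose 10 spots on the atopic diathesis array had a median of 5.02 and whose 9 usable spots on the control array had a median of 4.75. Of the TRAF-interacting proteins that the name rule takes in, Traf3ip3 was detected in atopic diathesis only, at 58.5 there and 13.9 in control, at least 3.03-fold higher, and its bound likewise was under 2-fold with normexp, and was 1.37 with no background subtraction. Traf3ip1 and Traf3ip2 were undetected. Of the 5 genes detected only in atopic diathesis, 4 reached a bound of 2-fold, beside 59.2% of all such genes on the array.

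The BIRC genes encode inhibitors of apoptosis. Birc3, a ubiquitin ligase of the TNF receptor complex and a target of NF-kappaB, read 177.9 in atopic diathesis and 35.8 in control on 1 probe, a difference of 2.35 or 5.08-fold higher. The difference was 1.23 with no background subtraction, 1.38 with normexp and 3.38 with no background filter. On its second probe the signal was 237.3 in atopic diathesis and 10.2 in control, undetected there, at least 12.3-fold higher. Both probes thus gave the same direction. Its close relative Birc2, the neighbouring gene on chromosome 9, read 63.5 in atopic diathesis and 31.6 in control, a difference of 1.04, which 5 of 13 alternatives kept past 2-fold. Birc6, a giant ubiquitin-conjugating inhibitor, read 2005 in atopic diathesis and 1585 in control, a difference of 0.37. Birc5 (survivin, a cell division gene), on 3 probes, and Birc7 were undetected.

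The genes named Tnfaip, for TNF-induced protein, do not all share a function. Those named Tnfaip8l take their name from likeness to Tnfaip8. Tnfaip3, the ubiquitin-editing enzyme that ends NF-kappaB signalling, read 235.3 in atopic diathesis and 509.3 in control, a difference of -1.08. Tnfaip8l2, a negative regulator of Toll-like and T cell receptor signalling, read 807.8 in atopic diathesis and 1883 in control, a difference of -1.19. Both lay near the 2-fold line, and 9 and 12 of 14 alternatives, respectively, kept them past it.

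Tnfaip8 was read in opposite directions by its probes, at 83.8 in atopic diathesis and 230.7 in control on one (-1.43) and 43.8 in atopic diathesis and 25.8 in control on the other (0.80). Its mean of -0.32 therefore describes neither probe. Tnfaip6, a hyaluronan-binding secreted protein, read 38.0 in atopic diathesis and 28.5 in control on 1 probe (0.45), and 2 further probes were undetected. Tnfaip1, an adaptor of cullin ubiquitin ligases, was detected in atopic diathesis only, at 122.8 there and 5.41 in control, at least 6.35-fold higher, a bound that was 2.41 with normexp and 2.08 with no background subtraction. Tnfaip2, Tnfaip8l1 and Tnfaip8l3 were not detected.

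Birc3 and Tnfaip3 are both textbook NF-kappaB targets and lay on opposite sides of the median gene, so their upstream sequences are shown. They are the 250 bases before an annotated start of each gene, from RefSeq, build GRCm38.p6, with capitals at matches to the kappaB consensus of 10 letters on either strand. RefSeq gives Tnfaip3 a pair of starts. The window shown held matches at 2 places, beginning 125 and 12 bases before its start, the window of the other start (chr10:19011964-19012213) held none, and the Birc3 window held none. At least 1 such window held a match in 8 of the 45 genes of the set that have a RefSeq promoter sequence, and in 8.23% of all 27025 genes. A match is a description of letters and not of binding.
Tnfaip3, chr10:19015411-19015660, minus strand: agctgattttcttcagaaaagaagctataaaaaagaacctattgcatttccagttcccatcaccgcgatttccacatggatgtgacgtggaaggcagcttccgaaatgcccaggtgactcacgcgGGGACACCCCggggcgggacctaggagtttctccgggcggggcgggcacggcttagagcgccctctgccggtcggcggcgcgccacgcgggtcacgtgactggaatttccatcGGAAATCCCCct
Birc3, chr9:7873171-7873420, minus strand: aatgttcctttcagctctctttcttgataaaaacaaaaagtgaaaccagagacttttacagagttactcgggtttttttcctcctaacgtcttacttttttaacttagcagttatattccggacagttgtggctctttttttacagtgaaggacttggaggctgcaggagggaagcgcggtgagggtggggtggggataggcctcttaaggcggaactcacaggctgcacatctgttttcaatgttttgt

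Other genes of the pathway were taken from 6 lists that hold 58 genes, all on the array. Of these, 27 were measured, 3 of them higher (11.1%, against 17.3% of all measured genes) and 10 lower (37.0%, against 15.6%), with a median difference of -0.25. The lists were chosen with earlier results of these data known, and their counts were not recomputed under the processing alternatives. None of 6 ligands and 8 receptors of the superfamily under other names was measured on both arrays. Ltbr, the lymphotoxin beta receptor, was detected in control only, at 14.8 in atopic diathesis and 43.5 in control, at least 2.33-fold lower, and Ltb likewise with a bound of 1.45. Fas, Cd40 and Cd27 were not detected.

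Of 13 measured genes of receptor-proximal signalling, 6 were lower (46.2%, against 15.6% of all measured genes) and 2 higher (15.4%, against 17.3%). The lower ones included the mitochondrial IAP antagonist Diablo (-2.62), Naip6, one of several closely similar Naip genes (-2.36), the caspase-8 inhibitor Cflar (-1.46) and Casp8 itself (-1.22). The higher ones included Rnf31 (1.28), the catalytic subunit of the linear ubiquitin ligase, whose partner Sharpin was lower (-1.17) and whose partner Rbck1 lay within 2-fold (0.29). Cyld, a deubiquitinase of the same complexes, was the remaining lower gene (-1.04). Tradd, the adaptor that links the TNF receptor to its signalling complex, was detected in atopic diathesis only, at 523.6 there and 7.85 in control, at least 27.1-fold higher. Fadd, Ripk1 and Ripk3 were undetected.

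Among 6 measured kinases and kinase partners, Chuk (the IKK alpha subunit, -3.00), Map3k5 (-1.41) and Tab3 (-1.12) were lower, and Map3k14, the non-canonical NF-kappaB kinase that Traf3 restrains, was higher (1.35). These shares, 50% lower and 16.7% higher, stand beside 15.6% and 17.3% of all measured genes. Ikbkb was detected in atopic diathesis only, at least 2.91-fold higher. Map3k7, with 3 probes on the array, was also detected in atopic diathesis only, with a bound of 2.26. It read 43.6 in atopic diathesis and 19.0 in control, just under the lowest detected control signal of 19.8. Bounds of the list genes were not recomputed with other treatments of background. Of 6 measured NF-kappaB subunits and inhibitors, Rela was lower (-1.43), at 593.9 in atopic diathesis and 1631 in control, and Nfkbia lay at 0.31. The non-canonical subunit Relb, with 3 probes on the array, was detected in control only, at least 2.89-fold lower. The TNF-shedding protease Adam17 read 137.8 in atopic diathesis and 85.6 in control (0.72), and Adam10 lay at -0.25. The regulators of Adam17 trafficking, Rhbdf2 and Rhbdf1, were detected in atopic diathesis only, at least 3.63- and 2.26-fold higher.

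Most values rested on 1 probe. Of the 20 measured genes 16 had a single probe detected on both arrays. Of the 4 with more, Tnfrsf13b, Tnfrsf1a and Tnfsf12 had all such probes on 1 side of the median gene, and Tnfaip8 did not. In 3 genes, Tnfaip6, Tnfrsf9 and Traf6, a measured probe stood beside at least 1 probe of the same gene that was undetected on both. Traf2 and Traf7, detected in atopic diathesis only, each also had 1 probe undetected on both. All 10 genes past 2-fold kept their direction in every alternative that gave them a value. Birc3, Tnfrsf13b, Tnfsf10, Traf5 and Traf6 also stayed past 2-fold in all of these, and the other 5 did not. The alternatives are not independent checks. Keeping outlier spots, taking the brightest probe and leaving out shared or TG-repeat probes could hardly move a gene read from 1 probe. The deposited series table gave nearly the same values as quantile normalization.

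**Figure D4:**
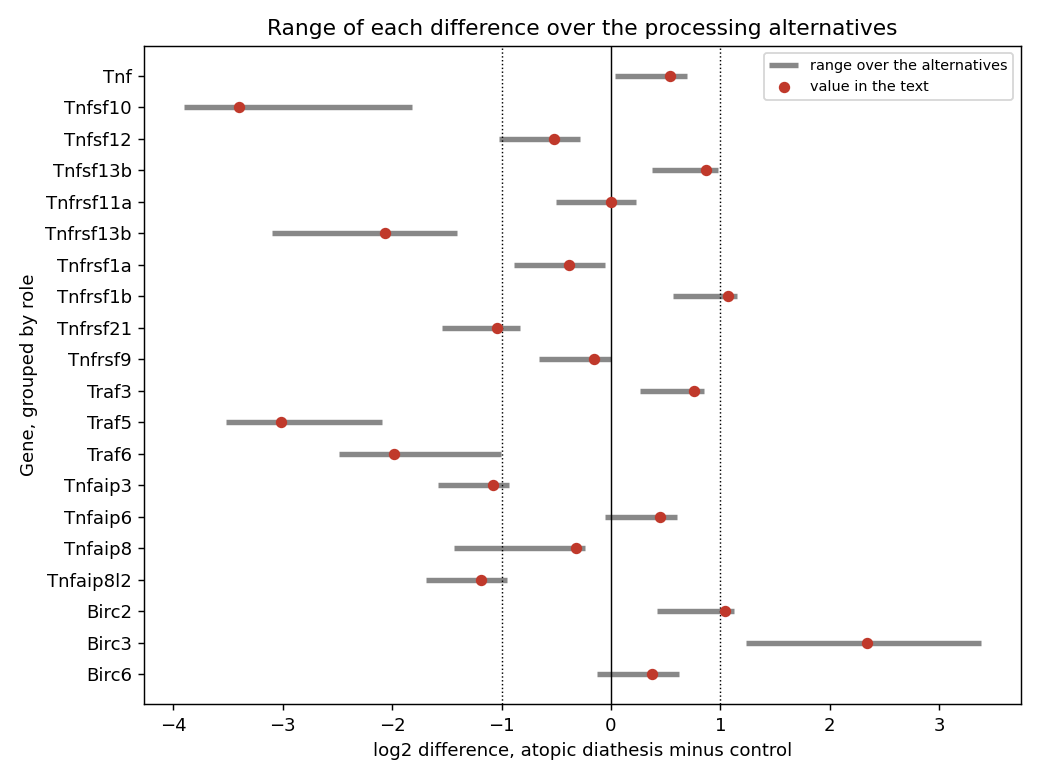
For each of the 20 measured genes, the log2 difference given in the text (red point) and its range over up to 14 processing alternatives (grey line), with dotted lines at 2-fold. The ranges of Tnfsf10, Traf5, Traf6, Tnfrsf13b and Birc3 lie wholly past 2-fold, and those of Birc2, Tnfrsf1b, Tnfrsf21, Tnfaip3 and Tnfaip8l2 cross that line.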

How the data were processed

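The authors deposited 1 scanner file per array with fluorescence intensity per spot on a linear scale, from Agilent Feature Extraction 10.7.1.1 per the file headers (9.5.1.1 per the submitters' processing notes). Per the headers the processed signal was spatially detrended, with surrogate values near background. Flags deposited in the same files mark spots well above background, saturated (0 spots) and outlying. The series table, also deposited by the authors, gives an intensity for each probe, with medians of 6.64 in both columns, and after sorting, 100% of ranks differed by at most 0.01 log2 between columns; no source used here states its scale or normalization. Its scale was linear by comparison with the scanner values. Its differences lay close to those under quantile normalization (Traf5 -3.03 and -3.04, Birc2 0.74 under both), so it is not a separate alternative to that setting.

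From the processed signal, 3671 control spots and outlier spots (122 in atopic diathesis, 136 in control) were left out, spots of a probe were averaged on the log2 scale, and genes took the mean over probes well above background on both arrays. Arrays were scaled to the 75th percentile of probes detected on both (723.9 in atopic diathesis, 784.3 in control), then centred on the median measured gene (a shift of 0.08). A probe above background on 1 array gave a bound, its bright signal divided by the dim array's lowest detected signal, or by the dim probe's own signal where that was higher. Probe names matched RefSeq accessions for 71 of 76 probes, all with the same symbol. Every detected member is named, and list genes are named where past 2-fold, except 1 that is not reported here; a few others were chosen after their values were seen. Members and lists were chosen with earlier results of these data known. The procedure was tested on simulated data. Python 3.11.15, R 4.3.3 and limma 3.58.1 were used. Arrays carry no count of molecules, and their number (1 per group) limits the precision.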

Additional observations from a re-analysis of the deposited data

How the results depend on the processing

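Differences of the 10 genes past 2-fold kept their direction in each of the up to 14 alternatives that gave a value, which are not independent checks. Of the genes within 2-fold, Birc6 (-0.13 to 0.62), Tnfaip6 (-0.05 to 0.61) and Tnfrsf11a (-0.50 to 0.23) changed side of 0. The number of higher genes, 3 in the text, was 1 with the 75th percentile of all probes (median of members -0.74), with quantile normalization, with normexp, with no background subtraction and with the deposited series table. The number was 0 with brighter probes only, where 11 genes were left, beside 14.2% of all genes in that setting. It was 5 of 25 when a probe detected on 1 array sufficed (median 0.19, since genes detected in atopic diathesis only enter), beside 29% of all genes. With no background filter it was 5 of 54, beside 16% of all genes. The number of lower genes, 7 in the text, was 4 with quantile normalization and with the deposited series table, beside 16.3% and 16.2% of all measured genes. It was 6 with normexp and with no background subtraction, beside 10.5% and 9.58%, and 4 to 8 over all alternatives. The share over all genes ran from 8.76% to 27.2%. Bounds of at least 2-fold, 4 in the text, were reached by 2 genes with normexp and by 2 with no background subtraction, and by no gene for control only in any of the settings computed. The share among all genes detected in atopic diathesis only was 59.2% in the text and was not computed for the other settings. Leaving out probes with a TG repeat, an alternative chosen after seeing the data, drops Tnfrsf9 and gave 3 higher and 7 lower of 19, beside 17.4% and 15.6% of all genes. Apart from construction, the cause of these shifts was not tested. No paired analysis was possible because each group holds 1 array. Signals within a few units of the background limit set the smallest fold that can be read, and no replicate can be left out.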

Other observations

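Probes outside the name rule also describe member genes. A pair of probes described as a TNF transcript cluster read 4.38 and 4.26 in atopic diathesis and 4.29 and 4.19 in control, and a further Tnfaip8 probe read 5.22 in atopic diathesis and 4.24 in control. None of these was detected, while the Tnf probe printed 10 times was.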
